A study of Homo sapiens with 16 samples.

Results

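The genes described here are 7 members of the prostaglandin pathway, PTGS2, PTGS1, PTGES, PTGER2, PTGER4, HPGD and PLA2G4A, out of 19962 protein-coding genes on chromosomes 1 to 22 and X. They were chosen for their place in the pathway, with earlier results of these data already known. Around each gene, the p65 ChIP-Seq tracks were read in 200-bp bins on GRCh38, from 150 kb before the 5′ end of the gene to 20 kb past its 3′ end, including the whole interval between PTGS2 and PLA2G4A. These windows held 6547 of the 15155223 bins of the genome. A bin was listed for a group of libraries when its group mean was at least 2, in the tracks' unit of tag density scaled to an equal total in all libraries, and at least 4 times the input of the same cells. By this rule 7 bins were listed near the 7 genes, 5 in the window of PTGES and 2 in that of PTGER4, and none in the windows of PTGS2, PLA2G4A, PTGS1, PTGER2 or HPGD.

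Prostaglandins are lipid signals made from arachidonic acid. PLA2G4A, the cytosolic phospholipase A2, frees arachidonic acid from membranes, and the cyclooxygenases PTGS1 and PTGS2 (COX-1 and COX-2) turn it into prostaglandin H2. PTGES makes prostaglandin E2 from it, HPGD breaks prostaglandin E2 down, and PTGER2 and PTGER4 are receptors that carry its signal into the cell. PTGS1 is expressed in most tissues, whereas PTGS2 is induced by cytokines, is often raised in colorectal tumors and is the target of the COX-2 inhibitors. NFκB is a family of dimeric transcription factors that TNFα brings into the nucleus. Its subunit p65 (RELA) carries an activation domain, and NFκB dimers bind DNA sequences known as κB sites.

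HT29 and SW480 are colon cancer cell lines. Each line was used in a mock form, stably carrying an empty vector, and in an ERβ form that stably carried estrogen receptor beta. All cells received TNFα at 30 ng/ml for 30 min and no estradiol, and chromatin was crosslinked with disuccinimidyl glutarate and formaldehyde before precipitation with an antibody against p65. Each of the 4 groups gave 3 ChIP libraries and had 1 input, which makes 16 libraries, and cells without TNFα were not analysed here. The inputs of the ERβ forms came from another series, by the study's methods. No ligand was given because, by the study's methods, the introduced receptor acts without it in these lines. Whether a form is 1 clone is not stated in the sources used here. The methods call the libraries of a group biological replicates from repeated experiments, without describing separate cultures, so that p-values measure the spread between these libraries.

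The tracks hold a scaled density and no read counts, so the depth behind a value is not shown by them and no counting interval is given. All 12 ChIP libraries followed the copy number profile of the inputs of their own line, with correlations of at least 0.962 over 2799 bins of 1 Mb against at most 0.592 with the other line. Signal in the coding exons of ESR2, the gene of ERβ, was 2.44 to 7.06 times that of its introns in the 6 ERβ libraries and 1.07 to 1.61 times in the 6 mock libraries. The 2 HT29 libraries numbered 1 stood apart, with a mean signal over all listed bins of 3.64 in mock and 3.14 in ERβ cells, against 1.58 to 1.98 in the other 4 HT29 libraries. The SW480 ERβ libraries also read high there, at 2.44, 4.12 and 3.80, against 1.57 to 1.90 in SW480 mock. The listing itself favours this order, since 9577 of the 12569 listed bins were listed in SW480 ERβ and 1499 in SW480 mock cells. In pooled cells, a larger share of cells with bound p65 and more binding per cell cannot be told apart.

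5 of the bins that the results turn on are printed here from the plus strand of GRCh38, chosen because each is the bin of highest signal of a gene or the one in which the lines or forms differed. Capitals mark matches to the κB consensus in all but the last, where they mark TGTGGT, the core of the RUNX site. The first lies downstream of PTGS2, the second upstream of PTGS2, the third in the PTGES intron, the fourth in the PTGER4 promoter and the fifth between PTGS2 and PLA2G4A.
chr1:186578401-186578600: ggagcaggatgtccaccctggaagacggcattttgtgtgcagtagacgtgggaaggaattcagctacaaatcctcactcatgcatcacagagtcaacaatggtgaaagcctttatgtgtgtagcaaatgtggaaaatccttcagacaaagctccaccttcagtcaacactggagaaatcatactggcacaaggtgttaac
chr1:186708801-186709000: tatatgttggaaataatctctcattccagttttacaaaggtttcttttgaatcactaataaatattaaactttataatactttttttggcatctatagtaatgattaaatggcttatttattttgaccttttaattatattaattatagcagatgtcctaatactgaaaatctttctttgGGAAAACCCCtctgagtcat
chr9:129752401-129752600: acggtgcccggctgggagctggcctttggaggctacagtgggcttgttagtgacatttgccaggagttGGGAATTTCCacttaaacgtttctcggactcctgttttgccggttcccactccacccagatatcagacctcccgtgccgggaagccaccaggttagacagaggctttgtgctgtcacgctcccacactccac
chr5:40679601-40679800: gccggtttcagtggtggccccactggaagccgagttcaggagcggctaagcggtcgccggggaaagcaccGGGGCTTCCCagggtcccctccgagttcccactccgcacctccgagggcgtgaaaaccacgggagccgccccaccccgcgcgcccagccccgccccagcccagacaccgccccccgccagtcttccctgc
chr1:186793201-186793400: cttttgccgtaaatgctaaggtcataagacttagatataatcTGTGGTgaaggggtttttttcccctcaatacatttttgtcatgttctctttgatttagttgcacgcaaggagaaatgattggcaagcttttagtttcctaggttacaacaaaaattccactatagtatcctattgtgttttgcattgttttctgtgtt

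The promoter of PTGS2 is given as well, because NFκB acts on this gene and yet no bin of the promoter was listed. It runs from 250 bases before to 50 bases after the RefSeq start on GRCh38.p14 and is printed 5′ to 3′ along the gene from the minus strand. It has no capitals because none of the 3 motifs matched it in full. Its stretch gggactaccc has A where the κB consensus, given below, asks for C or T, and otherwise follows it.
PTGS2 promoter, chr1:186680374-186680673: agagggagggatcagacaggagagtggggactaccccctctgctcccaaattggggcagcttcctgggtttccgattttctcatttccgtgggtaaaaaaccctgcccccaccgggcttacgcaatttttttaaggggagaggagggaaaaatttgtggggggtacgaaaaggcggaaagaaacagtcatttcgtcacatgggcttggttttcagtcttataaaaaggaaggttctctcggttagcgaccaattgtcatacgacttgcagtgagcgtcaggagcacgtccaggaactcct

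Matches were sought on both strands to the κB consensus (GGRRNWYYCC), to AP-1 (TGANTCA) and to RUNX (TGTGGT). Here R is A or G, W is A or T, Y is C or T and N is any base. A match is a description of letters, not of binding. Sequences that depart from a pattern by any letter were not counted, so a lack of matches does not show a lack of κB sites. A κB match was present in 38.6% of the 12569 listed bins of the genome, in 5.31% of the 1146534 bins tested for differences and in 9.43% of 35116 RefSeq promoters cut as above. AP-1 matched 12.5% of listed and 6.97% of tested bins, and RUNX 15.6% and 14.2%. Among the 7 listed bins near the pathway genes, 4 held a κB match. These were the PTGES intron bin with GGGAATTTCC, the PTGES exon bin with GGGGCTTTCC and GGGGACCCCC, the PTGER4 promoter bin with GGGGCTTCCC, and a bin in an FNBP1 exon with GGGAAATTCC. Of the RefSeq promoters of the 7 genes, that of PTGER4 held a κB match, the same GGGGCTTCCC, and those of the other 6 genes held none. In the bin of highest signal near PTGS2, the first printed above, none of the 3 motifs matched.

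The listed bins made up 0.107% of the bins in the 7 windows, against 0.0829% of all bins. By group, 3 bins were listed in HT29 mock, 1 in HT29 ERβ, none in SW480 mock and 6 in SW480 ERβ cells, and genome-wide the same rule listed 0.0404%, 0.0268%, 0.00989% and 0.0632% of bins. Windows built the same way held at least 1 listed bin for 54.1% of all protein-coding genes, and for 2 of the 7 genes. The median over all genes was 1 listed bin, with an upper quartile of 3, so the 5 bins of PTGES were above that quartile. The HT29 counts rested on the libraries numbered 1: without them both HT29 groups had 0 listed bins. Without HT29 mock replicate 2 the HT29 mock count was 4, and without HT29 ERβ replicate 3 the HT29 ERβ count was 2. The limits were close for some bins. Just inside, a USP20 exon bin had a mean of 2.05 in SW480 ERβ cells, and just outside, a PTGES intron bin had 1.82 and a bin 23.9 kb upstream of PTGS1 had 1.68 in HT29 mock cells.

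**Figure D1:**
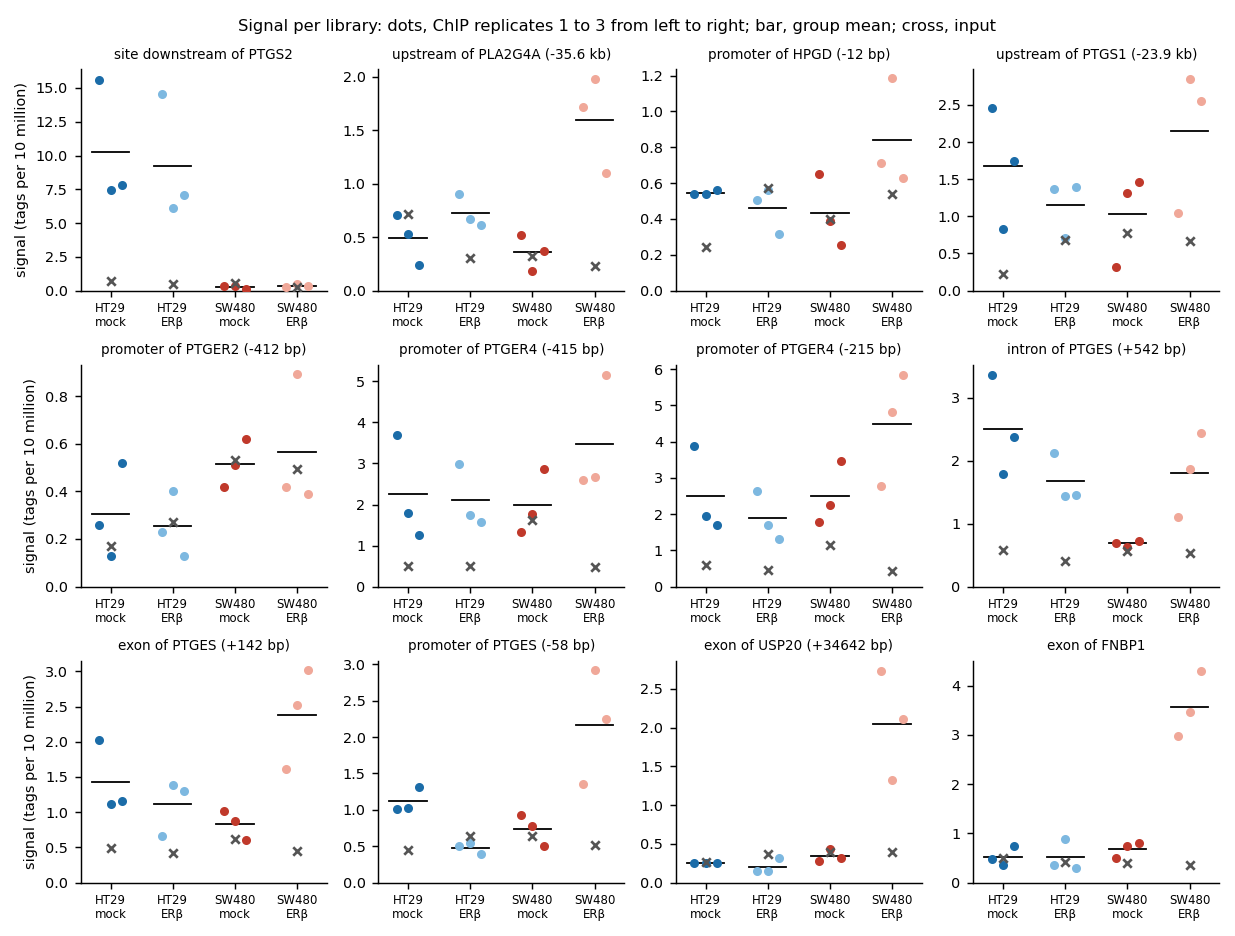
Signal (vertical axis, scaled tag density) in each library at 12 bins, with a dot per ChIP library in the order of replicate 1 to 3, a bar for the group mean and a cross for the input. The site downstream of PTGS2 was high in all 6 HT29 and low in all 6 SW480 libraries, whereas the bins in USP20 and FNBP1 exons and upstream of PLA2G4A were highest in the 3 SW480 ERβ libraries.

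Within the window of PTGS2, p65 signal stayed low in every group. The highest group mean of any of its 897 bins was 1.21 in HT29 mock, 1.07 in HT29 ERβ, 0.629 in SW480 mock and 1.60 in SW480 ERβ cells. Of these bins, 11 reached the mean over the 12 ChIP libraries of 0.5 that was asked before testing, and all 11 also belong to the window of PLA2G4A, which starts beside PTGS2 and is read in the opposite direction. The chromosomal background differed between the lines here. The mean input signal over the window was 0.374 in HT29 and 0.279 in SW480, a ratio of SW480 to HT29 of 0.747.

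Comparing HT29 with SW480 by limma over all tested bins, with adjustment by Benjamini-Hochberg, 7 of the 11 bins were called, all higher in HT29. Of all tested bins 36.2% were called, 15.2% as higher in HT29. When signal was divided by the copy number read from the inputs, 3 of the 11 remained called, again higher in HT29, and 2.77% of all tested bins were. They were chr1:186708801-186709000, its neighbour on the right, and chr1:186763201-186763400, 65.6 kb upstream of PLA2G4A, and are named after their values were seen.

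At chr1:186708801-186709000, 28.5 kb upstream of PTGS2, the HT29 mock libraries read 1.55, 0.903 and 1.16 and the HT29 ERβ libraries 1.43, 1.01 and 0.752. The SW480 mock libraries read 0.120, 0.310 and 0.420 and the SW480 ERβ libraries 0.310, 0.301 and 0.240. All 6 HT29 libraries were above all 6 SW480 libraries. As the bin was picked for this difference, its size is a description. It was 0.73 on the log2 scale (SE 0.11), and 0.60 (SE 0.12) after division by copy number. This bin, the second printed above, held 1 κB match, GGAAAACCCC, and 2 AP-1 matches, TGAATCA and TGAGTCA. Its group means were below the level of 2 that a listing needs.

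Farther toward PLA2G4A, 35.6 kb upstream of that gene and 113 kb upstream of PTGS2, lay the bin with the highest mean of both windows, chr1:186793201-186793400. The SW480 ERβ libraries read 1.72, 1.98 and 1.10 there, and the SW480 mock libraries 0.520, 0.180 and 0.370. The HT29 libraries read 0.703, 0.530 and 0.238 in mock and 0.903, 0.670 and 0.611 in ERβ cells. All 3 SW480 ERβ libraries were above the other 9. The bin was named for its mean over the 12 ChIP libraries, which the SW480 ERβ libraries raised, so its log2 differences between ERβ and mock, 0.93 in SW480 (SE 0.17) and 0.22 in HT29 (SE 0.17), are a description. The difference between these effects was 0.71 (SE 0.24) and was not called. The neighbouring bin of 200 bp on the left gave 0.86 (SE 0.16) in SW480, and both bins were among those called there. Of all tested bins 0.503% were called between ERβ and mock in SW480 cells.

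**Figure D2:**
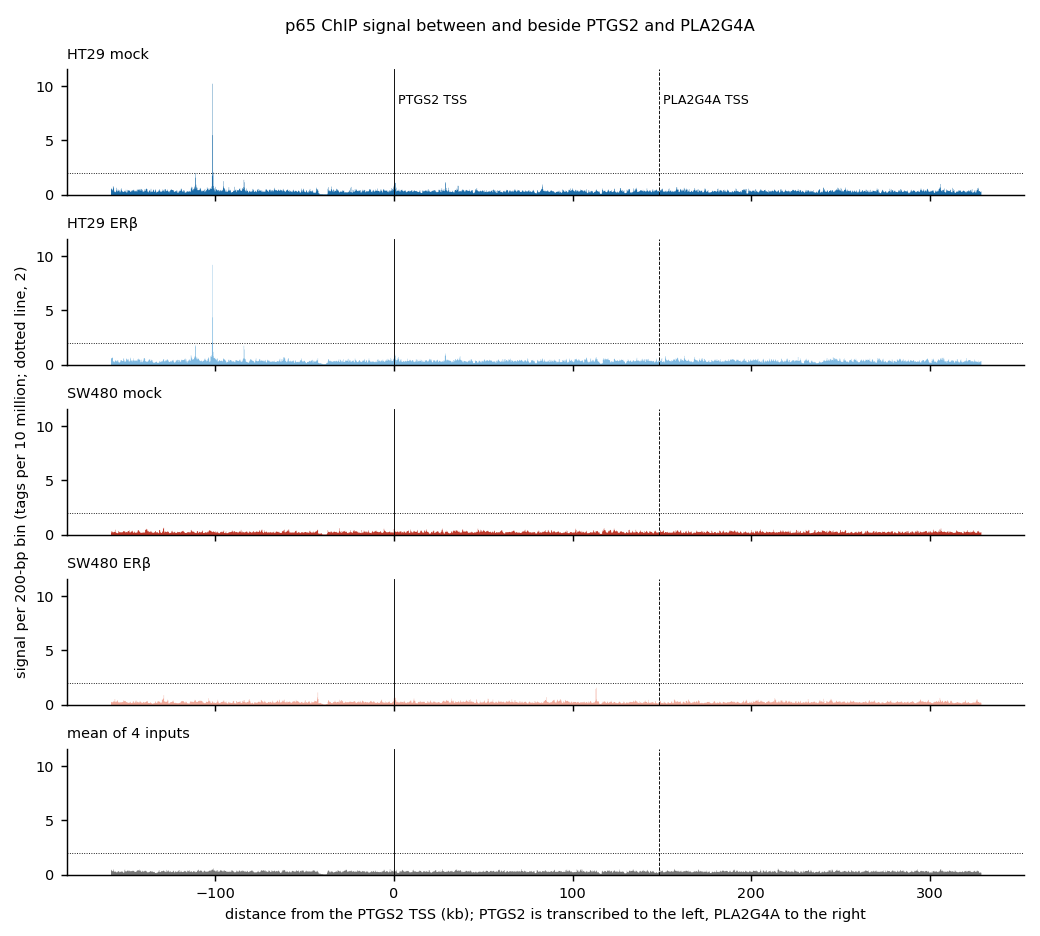
Group mean signal per 200-bp bin (scaled tag density) against distance from the start of PTGS2 in kb, with a panel for each ChIP group and 1 for the mean of the 4 inputs; the dotted line marks a signal of 2. The tall HT29 peak on the left is 102 kb downstream of PTGS2, the lower SW480 ERβ peak near 113 kb lies between the genes, and both promoters stay below the dotted line in every group.

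Beyond the window, 102 kb downstream of the start of PTGS2, stands the p65 site that the study draws for this gene. It lies in chr1:186578401-186578600, within an exon of a processed pseudogene (ENSG00000228238). The HT29 mock libraries read 15.6, 7.41 and 7.83 and the HT29 ERβ libraries 14.6, 6.12 and 7.05. The SW480 mock libraries read 0.320, 0.375 and 0.140, the SW480 ERβ libraries 0.25, 0.520 and 0.340, and the 4 inputs 0.303 to 0.686. The groups of the 2 lines did not come near each other, and SW480 signal was at the level of the inputs. The means were 10.3 ± 4.61 in HT29 mock and 9.25 ± 4.64 in HT29 ERβ cells (SD, n = 3), 15.0 and 18.2 times the input, and 0.278 ± 0.123 and 0.370 ± 0.137 in SW480.

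The study names PTGS2 for binding in HT29 alone, and the bin was picked by its signal. Its difference between the lines is therefore given as a description. HT29 was 2.95 higher on the log2 scale (SE 0.21), or 2.61 without the 2 HT29 libraries numbered 1 and 2.73 higher after division by copy number. Over all listed bins, each HT29 ERβ library had a lower mean signal than the mock library of the same number. The means were 3.14 against 3.64, 1.63 against 1.85 and 1.58 against 1.98, and the median log2 difference over these bins was -0.141. At the PTGS2 site too, each HT29 ERβ library was below the mock library of the same number. The log2 difference between ERβ and mock was -0.15 in HT29 (SE 0.30, adjusted p = 1, limma), with an SE of 0.21 and an adjusted p of 1 under the replicate block, and 0.10 (SE 0.30, adjusted p = 0.98) in SW480. A further bin 111 kb downstream, chr1:186569001-186569200, was listed in HT29 mock with a mean of 2.04 ± 0.939, read 1.72 ± 0.960 in HT29 ERβ cells and 0.193 ± 0.0731 and 0.407 ± 0.142 in SW480. It held a κB match, GGGATTTTCC, and an AP-1 match, TGATTCA.

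Across listed bins, each assigned to the nearest protein-coding gene and read at the highest bin of 4856 genes, the pattern of this site over the 12 ChIP libraries was closely followed at SNTB1, PARP14, PFDN4 and TMEM275. Pearson correlations were 0.994, 0.993, 0.992 and 0.990, with n = 12 libraries that share their scaling and the higher level of the HT29 libraries numbered 1. The bin at PARP14 averaged 9.68 in HT29 and 0.368 in SW480 and that at PFDN4 14.6 and 0.866, against 9.77 and 0.324 at the PTGS2 site.

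PTGS1, the constitutive cyclooxygenase, had no listed bin. Its highest bin, chr9:122347001-122347200, lay 23.9 kb upstream between genes and held the κB match GGGAGTTCCC. The libraries read 2.45, 0.830 and 1.75 in HT29 mock, 1.37, 0.705 and 1.40 in HT29 ERβ, 0.320, 1.32 and 1.47 in SW480 mock and 1.05, 2.85 and 2.55 in SW480 ERβ cells. All 4 groups overlapped. The SW480 ERβ mean was above 2, at 2.15, but its input there was 0.670. The log2 difference between HT29 and SW480 was -0.06 (SE 0.17, adjusted p = 0.841), and that between ERβ and mock in SW480 was 0.63 (SE 0.25, adjusted p = 0.382). Among the 41 tested bins of this window 9 were called between the lines, 1 of them higher in HT29, which is 22% against 36.2% of all tested bins. After division by copy number 2 were called, or 4.88% against 2.77% of all tested bins.

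PTGES, the inducible prostaglandin E synthase, had 3 listed bins at its own start. In the first intron, at chr9:129752401-129752600 and 542 bp past the start, the HT29 mock libraries read 3.37, 1.80 and 2.37 and the HT29 ERβ libraries 2.12, 1.43 and 1.46. The SW480 mock libraries read 0.694, 0.630 and 0.730 and the SW480 ERβ libraries 1.10, 1.88 and 2.44, with inputs of 0.409 to 0.580. SW480 mock cells lay below every other library, and the HT29 and SW480 ERβ libraries overlapped. The bin was listed through HT29 mock cells alone and so had to be high there, and its difference between HT29 and SW480, 0.49 on the log2 scale (SE 0.17), is a description. It was called, but not after division by copy number or without the 2 HT29 libraries numbered 1. The call also ended in 1 of the 12 fits that left out a single library. The difference between ERβ and mock in SW480 was 0.71 (SE 0.24, adjusted p = 0.236), and it passed with the replicate number as a block (adjusted p = 0.0478).

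Closer to the start of PTGES, the signal of SW480 ERβ cells was the highest. At chr9:129753001-129753200, centred 58 bp before the start, the SW480 ERβ libraries read 1.35, 2.92 and 2.25 and the SW480 mock libraries 0.931, 0.776 and 0.506. The HT29 mock libraries read 1.01, 1.02 and 1.31 and the HT29 ERβ libraries 0.5, 0.538 and 0.391. Each SW480 ERβ library exceeded all 3 of SW480 mock, and each HT29 ERβ library was below all 3 of HT29 mock. The bin was listed through the SW480 ERβ group alone and so had to be high there, and its SW480 difference, 0.84 on the log2 scale (SE 0.20), is a description. In HT29 the difference was -0.52 (SE 0.20) with an unadjusted p of 0.0101 from limma, which did not pass adjustment over all bins (adjusted p = 1). The difference between the 2 effects, which the same choice of the bin raises, was 1.36 (SE 0.28). It was called by the interaction test, and this call ended without any 1 of 5 libraries (HT29 mock replicate 3, HT29 ERβ replicate 2 or 3, SW480 mock replicate 3 and SW480 ERβ replicate 2), with 1.20 to 1.39.

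The third bin, chr9:129752801-129753000 in an exon 142 bp past the start, had means of 1.43 ± 0.514 in HT29 mock, 1.12 ± 0.394 in HT29 ERβ, 0.833 ± 0.206 in SW480 mock and 2.38 ± 0.713 in SW480 ERβ cells (SD, n = 3). It too was listed through SW480 ERβ cells alone, and its log2 difference between ERβ and mock in SW480, 0.87 (SE 0.23), is a description.

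**Figure D3:**
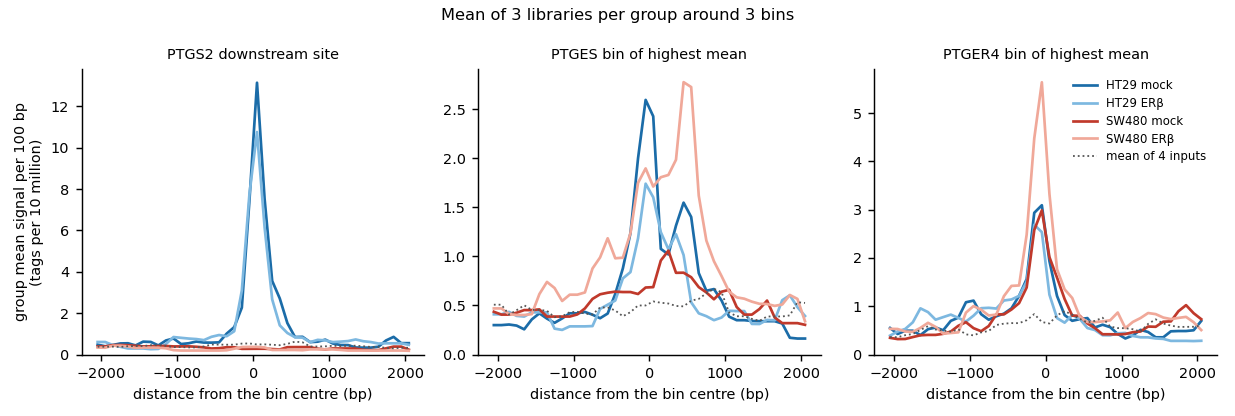
Group mean signal per 100 bp (vertical axis, scaled tag density) against distance in bp from the centre of 3 bins, with a line per ChIP group and a dotted line for the mean of the 4 inputs. The PTGS2 downstream site is a single HT29 peak, PTGES has a peak in the intron shared by both HT29 groups and SW480 ERβ cells and a second one toward the start that is tallest in SW480 ERβ cells, and PTGER4 has 1 peak in all 4 groups.

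Both remaining listed bins of the PTGES window were in exons of other genes, more than 100 kb upstream. At chr9:129870001-129870200 in USP20, which encodes a deubiquitinase, 117 kb from PTGES, the SW480 ERβ libraries read 2.73, 1.32 and 2.11. The other 9 libraries read 0.15 to 0.430 and the inputs 0.264 to 0.400. At chr9:129887801-129888000 in FNBP1, which encodes a membrane-bending adaptor, 135 kb from PTGES, the SW480 ERβ libraries read 2.97, 3.46 and 4.30 and the other 9 read 0.286 to 0.890. These bins were listed through the SW480 ERβ group alone and so had to be high in it. Log2 differences between ERβ and mock, given as a description, were 1.16 (SE 0.15) and 1.44 (SE 0.20) in SW480 and -0.05 (SE 0.15) and -0.03 (SE 0.20) in HT29.

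Of the receptors, PTGER4 had its highest p65 signal at its promoter. In chr5:40679601-40679800, centred at -215 bp from the start, the libraries read 3.88, 1.95 and 1.71 in HT29 mock, 2.64, 1.70 and 1.32 in HT29 ERβ, 1.79, 2.25 and 3.46 in SW480 mock and 2.79, 4.83 and 5.84 in SW480 ERβ cells. The HT29 and SW480 mock ranges overlapped, and 2 of the SW480 ERβ libraries were above all others. The mean was 4.14, 4.10, 2.18 and 10.7 times the input in the 4 groups. SW480 mock cells missed the listing here although their mean, 2.50 ± 0.862, was nearly that of HT29 mock cells, 2.51 ± 1.19, because the SW480 mock input was 1.15 and the other inputs were 0.420 to 0.607. With the SW480 ERβ input in its place, 1 bin was listed in SW480 mock cells, an alternative chosen after seeing the data.

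No contrast was called in this bin. The log2 difference between HT29 and SW480 was -0.46 (SE 0.21, adjusted p = 0.0717), and it became -0.69 (adjusted p = 0.00257) without the 2 HT29 libraries numbered 1. ERβ cells differed from mock cells by 0.63 in SW480 (SE 0.29, adjusted p = 0.532) and by -0.26 in HT29 (SE 0.29, adjusted p = 1). The neighbouring bin, chr5:40679401-40679600, had means of 2.25 ± 1.28, 2.10 ± 0.780, 1.98 ± 0.788 and 3.48 ± 1.45 in HT29 mock, HT29 ERβ, SW480 mock and SW480 ERβ cells, and it too was called in no contrast, although without the 2 HT29 libraries numbered 1 its difference between HT29 and SW480 was called (-0.46, adjusted p = 0.0421). These were 4.44, 4.16, 1.23 and 7.34 times the input. Over the whole window 137 bins were tested, the most of the 7 genes, and 10 were called between the lines, or 7.3% against 36.2% of all tested bins.

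PTGER2, the other receptor, had no bin with a 12-library mean of 0.5, and its highest bin, centred at -412 bp from the start, ranged from 0.130 to 0.520 in HT29 and from 0.388 to 0.891 in SW480. The inputs over its window averaged 0.216 in HT29 and 0.292 in SW480, a ratio of 1.35. HPGD, which degrades prostaglandin E2, had 2 tested bins and no call. At its promoter bin the group means were 0.546 ± 0.0117 in HT29 mock, 0.460 ± 0.130 in HT29 ERβ, 0.431 ± 0.202 in SW480 mock and 0.843 ± 0.301 in SW480 ERβ cells, with inputs of 0.241 to 0.574. In neither window did a group mean of any bin exceed 0.843.

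Taking the 7 listed bins together, 4 were called between HT29 and SW480 by limma, 1 higher in HT29 and 3 higher in SW480, where 36.2% of all tested bins and 61.6% of the 12569 listed bins were. The 3 higher in SW480, at the PTGES promoter and in USP20 and FNBP1, were listed through SW480 ERβ cells alone, and the 1 higher in HT29, in the PTGES intron, through HT29 mock cells alone, so nothing is read from these directions. At the PTGES promoter bin the mock forms ran the other way, with a mean of 1.12 ± 0.170 for HT29 and 0.738 ± 0.215 for SW480. Without the 2 HT29 libraries numbered 1, 5 were called, all higher in SW480, where 358947 of the 1146534 tested bins were called, 199680 of them higher in SW480. After division by copy number 2 of the 7 were called, those in USP20 and FNBP1, both higher in SW480. None was called between ERβ and mock in HT29, where 1 had an unadjusted p below 0.05, and 0.000611% of all tested bins and 0% of the listed bins were called. In SW480, 3 were called, all higher in ERβ cells, where 0.503% of tested and 19.2% of listed bins were. With the replicate number as a block 5 were, where 0.968% of tested bins were. The interaction was called in the same 3 bins, where 0.0996% of tested and 5.74% of listed bins were. As these 3 bins were listed through SW480 ERβ cells alone, their number and direction follow from the listing and nothing is read from them. The median log2 difference between ERβ and mock in SW480 was 0.84 over the 7 bins and 0.62 over all listed bins, many of which were listed through the SW480 ERβ group, and -0.001 over all tested bins.

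A wider count is that over the 268 tested bins of the 7 windows, taken by their mean over the 12 ChIP libraries. The SW480 ERβ libraries are part of that mean, so a bin high in them alone can pass. The USP20 bin passed with a mean of 0.713, from 2.05 in SW480 ERβ cells and 0.207 to 0.343 in the other groups. Between the lines 58 were called, 16 higher in HT29 and 42 higher in SW480. This is 21.6% against 36.2% of all tested bins (15.2% higher and 21% lower in HT29). The windows were unlike: 7.3% of 137 bins were called at PTGER4, 22% of 41 at PTGS1 and 0% of 2 at HPGD. The shares were 40.8% of 71 at PTGES, 58.8% of 17 at PLA2G4A and 63.6% of 11 at PTGS2. At PTGER4, which held the most tested bins, the SW480 input over the window was 0.986 times that of HT29. After division by copy number 15 were called, or 5.6% against 2.77%, with 1.46% at PTGER4, 4.88% at PTGS1 and 11.3% at PTGES.  The copy number shares were 17.6% at PLA2G4A, 27.3% at PTGS2 and 0% at HPGD. In SW480, 8 were higher in ERβ than in mock cells and none was lower, or 2.99% against 0.503% of all tested bins, and 0.465% in that direction. Of these 8, 6 lay in the window of PTGES and 2 were the neighbours between PTGS2 and PLA2G4A. The 6 include the 3 called bins that were listed through SW480 ERβ cells alone, so the count and its direction are a description. In HT29 none was called, and 15 had an unadjusted p below 0.05. Neighbouring bins share fragments, so these counts are not counts of independent sites. The part that the higher signal of the SW480 ERβ libraries over listed bins plays in them was not tested.

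**Figure D4:**
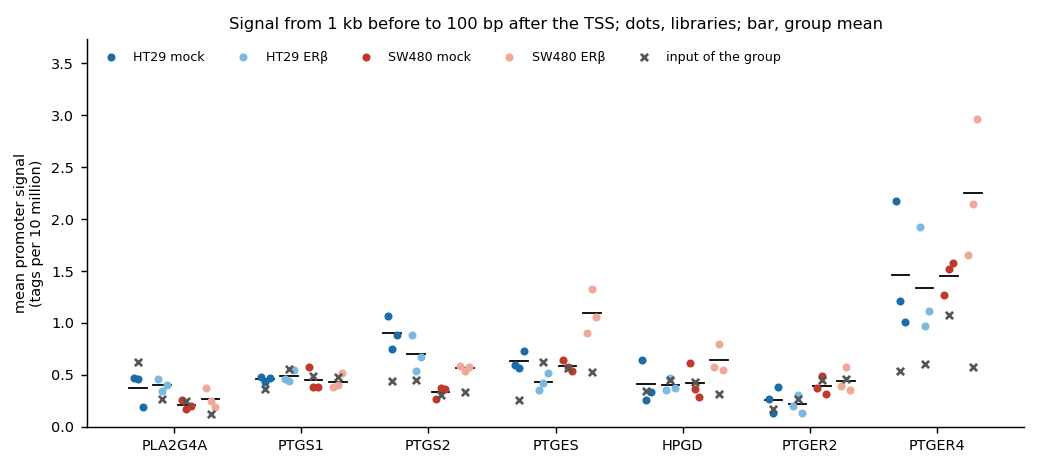
Mean signal from 1 kb before to 100 bp after the start (vertical axis, scaled tag density) for the 7 genes in pathway order, with dots for the 3 libraries of each group, bars for group means and crosses for inputs. PTGER4 stands highest, PTGS2 is higher in the HT29 than in the SW480 mock libraries, and PTGES is highest in the 3 SW480 ERβ libraries.

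Promoters were compared over all 19962 protein-coding genes, each from 1 kb before to 100 bp after its start. The PTGER4 promoter had a higher mean than 98.2% of them, PTGES than 76.4%, PTGS2 than 69.4%, HPGD than 44.8%, PTGS1 than 42.8%, PTGER2 than 21.4% and PLA2G4A than 18.9%. Between HT29 and SW480, 3 of the 7 promoters were called, against 36.4% of all promoters, 4.39% of all being higher and 32% lower in HT29. PTGS2 was the one that was higher in HT29 in this fit. Its libraries read 1.07, 0.754 and 0.881 in HT29 mock, 0.885, 0.542 and 0.674 in HT29 ERβ, 0.263, 0.371 and 0.360 in SW480 mock and 0.586, 0.533 and 0.579 in SW480 ERβ cells. Only the lowest HT29 ERβ library fell into the range of SW480, and the inputs were 0.440 and 0.449 in HT29 and 0.305 and 0.339 in SW480. The log2 difference was 0.31 (SE 0.06, adjusted p = 0.00247).

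Averaged over both forms, the log2 difference of HT29 against SW480 was -0.26 at PTGES (SE 0.06, adjusted p = 0.00567) and -0.20 at PTGER2 (SE 0.06, adjusted p = 0.0281). The PTGER2 promoter was below input in SW480, with 0.393 against 0.449 in mock and 0.442 against 0.462 in ERβ cells. In HT29 it read 0.261 against an input of 0.174 in mock and 0.215 against 0.264 in ERβ cells. At PTGES the mock libraries of the lines overlapped, at 0.567 to 0.728 in HT29 (0.631 ± 0.0854) and 0.540 to 0.639 in SW480 (0.586 ± 0.0495). The ERβ forms averaged 0.431 ± 0.0836 in HT29 and 1.10 ± 0.215 in SW480. PLA2G4A, with 0.16 (SE 0.06, adjusted p = 0.0524), was not called here. It was called as higher in HT29 with replicate numbers as a block shared by both lines (limma, adjusted p = 0.0257). The same held without HT29 mock replicate 3 or SW480 ERβ replicate 1. The PLA2G4A promoter read 0.370 against an input of 0.620 in HT29 mock and 0.402 against 0.267 in HT29 ERβ cells. In SW480 it read 0.213 against 0.253 in mock and 0.270 against 0.121 in ERβ cells. PTGER4 had a difference of -0.25 (SE 0.14, adjusted p = 0.204), which became -0.43 and was called (adjusted p = 0.0122) without both HT29 libraries numbered 1. After division by copy number none of the 7 was called. The differences became 0.20 at PTGS2 (adjusted p = 0.0523), -0.16 at PTGES (adjusted p = 0.0873) and -0.08 at PTGER2 (adjusted p = 0.528), while 10.4% of all promoters were, and 2 of the 7 had an unadjusted p below 0.05 in limma. The PTGER2 call also ended without HT29 mock replicate 2, HT29 ERβ replicate 1 or 3, SW480 mock replicate 2 or SW480 ERβ replicate 2, and without both HT29 libraries numbered 1. The median log2 difference was -0.12 over the 7 genes and -0.09 over all promoters. Between ERβ and mock cells, no promoter of the 7 was called in either line, where limma gave 1 unadjusted p below 0.05 in HT29 and 2 in SW480, and 0.105% of all promoters were called in SW480 and 0% in HT29. PTGES differed by 0.40 in SW480 (SE 0.08, adjusted p = 0.109), and the interaction was called in none of the 7 or of all promoters, with 2 of the 7 at an unadjusted p below 0.05.

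A list of 27 other pathway genes holds further phospholipases, synthases, reductases, transporters and receptors. Of their promoters 7 were called between the lines, 1 higher in HT29 and 6 lower, or 2 after division by copy number, where 36.4% and 10.4% of all promoters were. AKR1C3, a prostaglandin F synthase, was higher in HT29 with 0.484 ± 0.133 against 0.277 ± 0.0739 (SD, n = 6; adjusted p = 0.00425), and kept its call with copy number (adjusted p = 0.0454). Its signal was no higher than input in 3 groups, with 0.375 against an input of 0.459 in HT29 mock, 0.245 against 0.402 in SW480 mock and 0.308 against 0.323 in SW480 ERβ cells. PTGES3, a further E synthase and co-chaperone, was lower in HT29 with 0.684 ± 0.0889 against 1.40 ± 0.162 (adjusted p = 0.00013), and kept it too (adjusted p = 0.029), with inputs of 0.577 and 0.578 in HT29 and 1.02 and 0.770 in SW480. The other 5, PTGES2, ABCC4, PTGDR, PTGDR2 and TBXA2R, lost it. No promoter of the 27 was called between ERβ and mock cells, with 1 unadjusted p below 0.05 in HT29 and 2 in SW480 by limma.

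From 50 kb before to 2 kb after the start, the range in which the study assigns sites, 5 of these 27 genes and 2 of the 7 had a listed bin, against 25.6% of all protein-coding genes. The study takes the genes nearest to its sites in this range. Here a bin was counted for each gene that had it in range, even where another gene was nearer. The strongest bin of the list lay between genes, at -36870 bp from the start of PLA2G6, a calcium-independent phospholipase, and was listed in all 4 groups. Whether PLA2G6 is the gene nearest to it was not examined. It averaged 11.8 ± 4.08 in HT29 mock, 9.93 ± 3.78 in HT29 ERβ, 20.3 ± 3.43 in SW480 mock and 25.3 ± 7.41 in SW480 ERβ cells. The bin of TBXAS1, the thromboxane synthase, was in an intron of the gene but at -30964 bp, upstream of the start used here. Its means were 5.12 ± 2.72, 2.47 ± 1.72, 0.918 ± 0.159 and 1.44 ± 0.537 in the same order, and no SW480 group was listed there. At the promoter of PLA2G4C, a further phospholipase, the means were 2.62 ± 0.397, 3.81 ± 1.16, 2.11 ± 0.709 and 4.84 ± 1.23 in the same order. The bin assigned to PTGES2 was in the promoter of LCN2, which encodes lipocalin 2, and that of PTGER3 in the promoter of ZRANB2.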

How the data were processed

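The deposited files were 16 signal tracks on GRCh38, 12 of p65 ChIP and 4 of input DNA. According to the labels and the study's methods, the authors aligned single reads with STAR and made tag density tracks with HOMER, scaled to an equal total of tags per library. The labels list the antibody and TNFα for the inputs too. The deposited signal holds no read counts, so the depth behind a value is not shown.

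The signal was averaged over 200-bp bins with Python 3.11.15 and numpy 2.4.6, and positions without a value, which in the tracks means below 0.05, were taken as 0. Bins with a mean over the 12 ChIP libraries of at least 0.5 were tested on log2(signal + 1) with limma 3.58.1 (R 4.3.3, mean-variance trend). All 4 groups shared 1 spread, and p-values were adjusted by Benjamini-Hochberg over all tested bins, or over all promoters, at 0.05. The scale log2(signal + 1) understates the change of low bins. The copy number alternative divides the signal by the input of the same line and form in 100-kb bins. Gene models were those of GENCODE 44. The tests were tried first on simulated data.

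The 7 genes, the pathway list and the tests were chosen with earlier results of these data known. All 7 genes were named, as were up to 3 clusters of listed bins per gene at their highest bin, and the highest bin of each window. Also named were the bin taken as the site drawn by the study for PTGS2, and other pathway genes with a listed bin from 50 kb before to 2 kb after the start. The genes whose pattern over the 12 ChIP libraries was most like that of the PTGS2 site by Pearson's r of log2(signal + 1) were named too, and 1 of the first 5 is not reported here. All further bins were named after their values were seen.

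The replicate numbers were taken to pair the libraries within a line, since every same-numbered pair correlated above 0.1. Deviations from the group means of mock and ERβ libraries with the same number correlated with r = 0.580, 0.235 and 0.261 in HT29 and 0.316, 0.143 and 0.226 in SW480. Pairs with different numbers had -0.416 to 0.277 in HT29, where those of numbers 2 and 3 (0.277 and 0.195) were as high as the same-numbered pairs, and -0.221 to 0.018 in SW480. The fit with this block was run as an alternative for ERβ against mock and for the interaction. For HT29 against SW480 the block run was a different one, with each replicate number shared by both lines. Same-numbered libraries of the 2 lines correlated with r = -0.073 to 0.029, so that block has no pairing behind it.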

Additional observations from a re-analysis of the deposited data

Results flagged for a closer look

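In 3 listed bins of the PTGES window the interaction test (limma) called a difference between the ERβ effect in SW480 and that in HT29. All 3 bins were listed through SW480 ERβ cells alone, which raises the effect in SW480 and with it the difference, so the sizes are a description and are not evidence that the lines differ. The difference was 1.36 on the log2 scale at the PTGES promoter bin, 1.21 in the USP20 exon and 1.47 in the FNBP1 exon. The PTGES promoter call ended without any 1 of 5 libraries, and the FNBP1 call ended without HT29 ERβ replicate 3 (1.36) or SW480 mock replicate 1 (1.38).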

How the results depend on the processing

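The 7 listed bins became 15 with limits of 1.5 and 3 times input, 3 with limits of 3 and 6 times input, 4 in bins of 400 bp and 24 in windows of 150 kb to either side. They numbered 5 or 6 in the other settings, including 2 chosen after seeing the data, and 6 to 8 when single libraries were left out. Bins called between HT29 and SW480 numbered 4, and were 2 with copy number and 2 with a 12-library mean of at least 0.25, and 3 to 5 were called without single libraries. Counts for ERβ against mock were 0 in HT29 in every setting run, and in SW480 they were 2 to 4 without single libraries. The interaction gave 1 bin at a mean of at least 0.25 and 1 to 3 without single libraries, 1 without HT29 ERβ replicate 3. Promoters called between the lines numbered 0 with copy number and 2 to 4 without single libraries. The ABCC4 promoter changed sign with copy number, to 0.004. The cause of these changes was not tested.

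With the replicate block the pairing raised the bins called for ERβ against mock in SW480 from 3 to 5, while the share of all tested bins rose from 0.503% to 0.968%. The other counts with this block were 0 for ERβ in HT29 and 4 for the interaction, where the share of all tested bins rose from 0.0996% to 0.391%. With the block shared by both lines, 4 bins and 4 promoters were called between the lines, where 36.4% of all tested bins and 7119 of the 19962 promoters were. Of 39 single calls 0 were lost with the block, 17 with copy number and 10 at a mean of at least 0.25. A fit of the compared groups alone was not run for the line and the interaction, which use all groups. The tracks give no counts, so that counting error could not be stated.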

Other observations

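Past the 3′ end of PTGES, outside the windows described above, stood the bin with the highest mean over the 12 ChIP libraries within 150 kb of the 7 genes. In both HT29 groups the site downstream of PTGS2 was higher. In chr9:129597401-129597600, between genes and 156 kb downstream of the PTGES start, the libraries read 11.6, 6.99 and 6.27 in HT29 mock, 9.80, 5.04 and 5.54 in HT29 ERβ, 12.3, 12 and 12.9 in SW480 mock and 19.5, 26.6 and 25.0 in SW480 ERβ cells. All 6 SW480 libraries were above all 6 HT29 libraries. The bin was picked for its high mean after its values were seen, so these are a description. In an intron of PRRX2, a homeobox gene, 50.3 kb downstream of the PTGES start, SW480 mock libraries read 0.370, 0.230 and 0.407 and SW480 ERβ libraries 2.45, 5.34 and 2.67. HT29 read 4.09, 1.74 and 2.71 in mock and 3.25, 1.24 and 1.42 in ERβ cells. The bin was listed through HT29 mock and SW480 ERβ cells, so the ERβ effects, 1.70 in SW480 (SE 0.27) and -0.39 in HT29 (SE 0.27) on the log2 scale, are a description. This bin held the overlapping κB matches GGGGAATTCC and GGGAATTCCC.

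The bin assigned to PTGES2, in the promoter of LCN2, averaged 9.53 ± 3.96 in HT29 mock, 7.69 ± 3.91 in HT29 ERβ, 0.567 ± 0.203 in SW480 mock and 4.003 ± 0.977 in SW480 ERβ cells (SD, n = 3). No bin was listed for PTGES2 in SW480 mock cells, and the values are a description.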
